A study of Mus musculus with 10 samples.

Results

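Amino acids enter activated T cells through plasma membrane carriers, and the mRNAs of 9 such carriers were followed here in CD4+ T cells from mice with breast tumors. The 9 genes were chosen by symbol from the 17457 genes of the expression table, and all 9 were found: Slc3a2, Slc7a5, Slc7a6, Slc7a11, Slc1a5, Slc1a4, Slc38a1, Slc38a2 and Slc7a1. A resting T cell imports few amino acids. After engagement of the T cell receptor and CD28, the cell takes up leucine, glutamine, arginine and cystine to build protein, to keep the kinase complex mTORC1 active and to make glutathione. Slc3a2 encodes CD98, a heavy chain that carries light chains to the cell surface, and Slc7a5, Slc7a6 and Slc7a11 encode light chains that bind it. Slc7a5 exchanges glutamine for large neutral amino acids such as leucine, Slc7a6 exchanges arginine and neutral amino acids, and Slc7a11 imports cystine in exchange for glutamate. Slc1a5 and Slc1a4 exchange small neutral amino acids, Slc38a1 and Slc38a2 bring in glutamine and alanine together with sodium, and Slc7a1 imports cationic amino acids.

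RNA was measured in 10 libraries of sorted CD4+ T cells, 6 labelled TEST and 4 labelled CONTROL, each stimulated for 5 h in vitro with anti-CD3, anti-CD28, IL-2 and the cytokine TSLP. TEST 1, TEST 2 and TEST 3 came from C57BL/6 K14-TSLP +/tg, TSLPR -/- hosts injected with PyMT tumors and with Ly5.1 CD4+ T cells that carry the TSLP receptor. TEST 1 (draining lymph node) and TEST 2 (non-draining lymph node) were pools of the same 4 mice, and TEST 3 (non-draining lymph node) was a pool of 2 mice. CONTROL 1 (draining lymph node, 4 mice) and CONTROL 2 (draining and non-draining nodes, 1 mouse) came from C57BL/6 TSLPR -/- hosts that received PyMT tumors together with receptor-deficient (TSLPRKO) CD4+ T cells. Per the paper's methods, recipients of both these genotypes were sublethally irradiated before the T cell transfer. The other libraries were from 1 mouse each. TEST 4 was a C57BL/6 K14-TSLP +/tg, MMTV-PyMT +/tg, TSLPR +/- mouse, and CONTROL 3 a C57BL/6 K14-TSLP +/tg, MMTV-PyMT +/tg, TSLPR -/- mouse, whose cells came from the spleen. TEST 5 was a Balb/c K14-TSLP +/tg, MMTV-PyMT +/tg, Rag1 -/- mouse, 4 weeks old when it received CD4+ T cells, TEST 6 a Balb/c K14-TSLP +/tg, MMTV-PyMT +/tg, Rag1 +/- mouse, and CONTROL 4 a Balb/c Rag1 +/- mouse for which no transgene is named. The K14 promoter drives TSLP in skin keratinocytes and the MMTV promoter drives the PyMT oncoprotein in mammary epithelium. Strain, tumor model, tissue and transfer were uneven between the groups, and every difference between TEST and CONTROL also contains them. For CONTROL 3, the host makes TSLP and the T cells lack its receptor, whereas in CONTROL 4 the T cells carry the receptor and no TSLP transgene is named.

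The receptor gene Crlf2 followed the labels, at 0.15 to 0.21 FPKM (read fragments scaled for transcript length and for the mapped total of the library) in the 3 libraries of receptor-null T cells and at 3.28 to 34.85 FPKM in the other 7. Cd4 was at 104 to 193 FPKM and Cd3e at 190 to 991 FPKM in the 10 libraries, whereas Cd8a did not exceed 1.33 FPKM. TEST 4 stood apart, with 1.18% of its FPKM sum in ribosomal RNA genes against up to 26.0% elsewhere, and with the highest FPKM sum (535736, against a lowest of 359703 in CONTROL 2). Read numbers were not used here. The spacing of the lowest FPKM values put the depth of the other libraries at 0.641 to 1.19 times that of TEST 1. In bulk RNA, fewer cells of a type and less RNA per cell cannot be told apart.

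Promoter sequences of the carriers were examined for the element bound by ATF4, the transcription factor that responds to amino acid shortage. RefSeq windows of 300 bases (250 before and 50 after an annotated start, GRCm38.p6) were at hand for 6 of the 9 genes: Slc3a2, Slc38a2, Slc7a1, Slc7a6, Slc7a11 and Slc1a4. The letters TGATGNAA, on either strand, were found for 2 of these 6 genes, Slc7a11 and Slc1a4, and in the windows of 4.51% of the 27025 genes in the table. In Slc7a11 the letters occurred 2 times within 30 bases, once on each strand, the first of them 66 bases before the start (chr3:50443651-50443680, minus strand). In Slc1a4 they occurred 1 time, on the opposite strand to the gene, 4 bases before the start (chr11:20332699-20332728, minus strand). The stretches are shown because they hold these matches, which are in capitals.
Slc7a11: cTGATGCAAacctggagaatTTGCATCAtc
Slc1a4: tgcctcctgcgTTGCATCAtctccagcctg
The letters TGACNNNGC, the core of the antioxidant response element bound by NRF2, were found for 3 of the 6 genes (Slc7a1, Slc7a6 and Slc38a2) and 13.99% of all genes, and the E-box CACGTG bound by Myc for 0 of the 6 and 8.09% of all genes. None of these genes held more than 1 of the 3 motifs, so that no matches overlapped. Such matches describe the sequence and do not show binding.

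Slc3a2 had the highest mRNA level of the 9 carriers and Slc1a4 the lowest, on the FPKM scale, which corrects for transcript length. Mean levels over the 10 libraries were 110 FPKM for Slc3a2, 61.8 for Slc38a2, 32.9 for Slc1a5, 29.9 for Slc38a1, 24.7 for Slc7a11, 22.8 for Slc7a1, 21.5 for Slc7a5, 10.1 for Slc7a6 and 0.494 for Slc1a4. Slc3a2 was above Slc38a2 in 10 of 10 libraries, Slc7a5 above Slc7a6 in 10 of 10, and Slc7a6 above Slc1a4 in 10 of 10. The genes between them were not separated in this way. Slc38a2 was above Slc1a5 in 8 libraries, Slc38a1 above Slc7a11 in 8, Slc7a11 above Slc7a1 in 7 and Slc7a1 above Slc7a5 in 6, whereas Slc1a5 was above Slc38a1 in only 3 and owed its place in the order of means to its highest libraries. Slc1a4 stayed below 1 FPKM throughout (0 in CONTROL 4 to 0.78 in TEST 3), did not pass the filter of 1 FPKM in at least 4 libraries and was not tested. The other 8 genes passed.

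**Figure D1:**
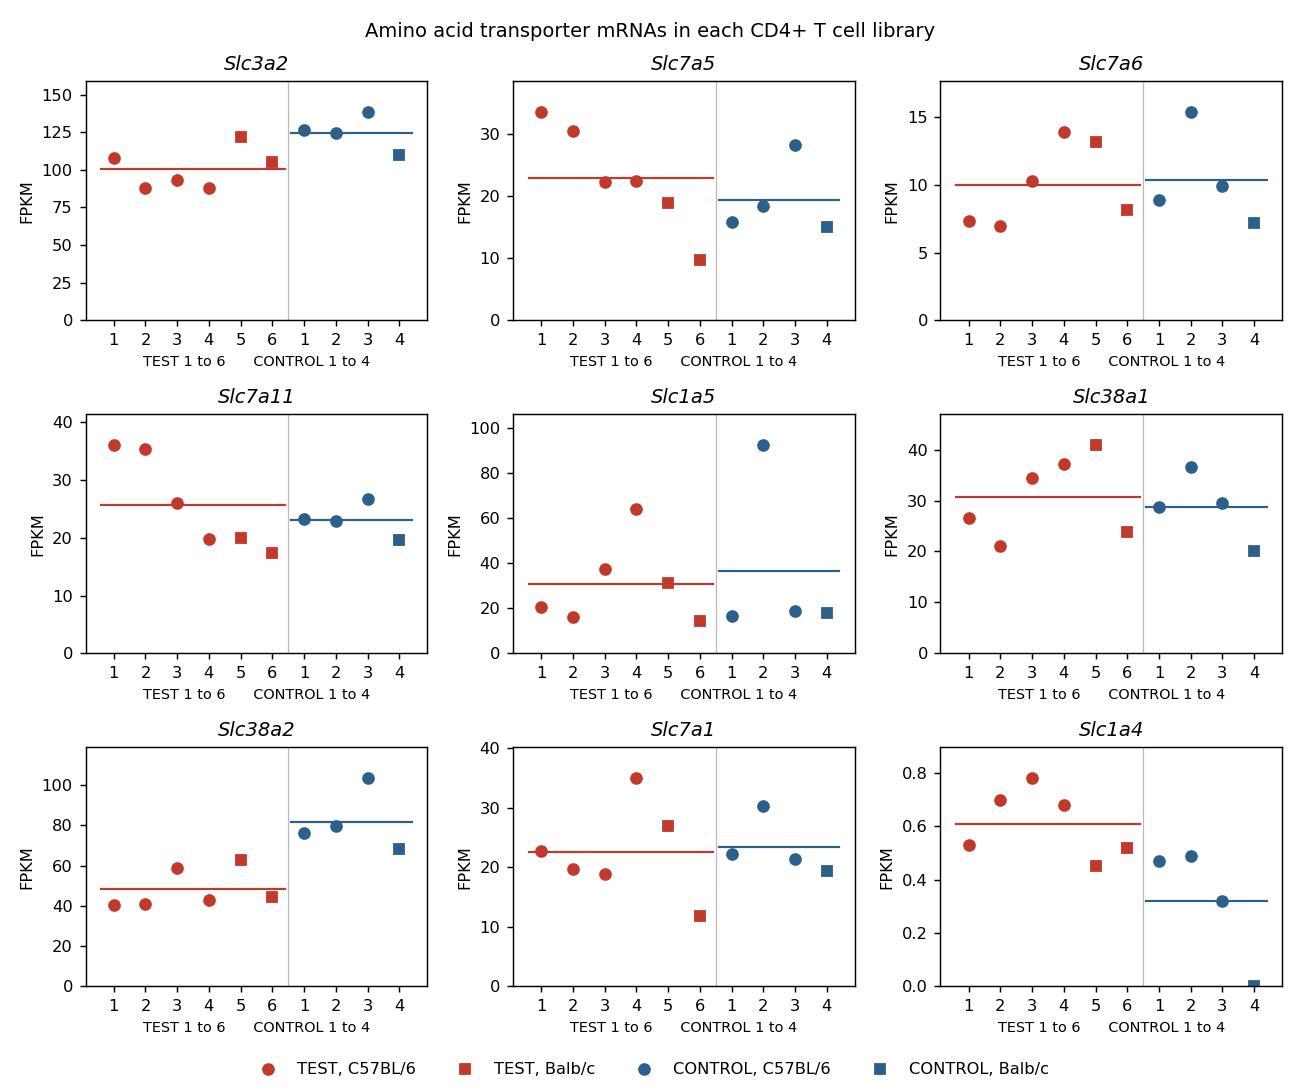
FPKM (vertical axis, from 0) of the 9 carrier mRNAs in TEST 1 to 6 (red) and CONTROL 1 to 4 (blue), with circles for C57BL/6, squares for Balb/c and horizontal lines for group means. Slc38a2 is the gene among the 8 tested in which all TEST libraries (40.45 to 62.98) lie below all CONTROL libraries (68.14 to 103.35), and CONTROL 2 is far above the other CONTROL libraries for Slc1a5.

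The comparison named by the labels was TEST against CONTROL. None of the 8 tested carriers passed the threshold (limma on log2(FPKM + 1), Benjamini-Hochberg adjusted p below 0.05 over the 10743 tested genes). Of all tested genes 10, or 0.0931%, passed, 8 of them higher and 2 lower in TEST, and 1474 had an unadjusted p below 0.05, among them 1 carrier, Slc38a2. Of the 8 differences, 3 were above 0 and 5 below, and their median was -0.03 on the log2 scale against 0.0029 over all tested genes.

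Slc38a2, a sodium-coupled carrier of glutamine and alanine whose mRNA is known to rise in amino acid starvation, was the carrier with the clearest separation. It was at 40.45, 41.0, 58.81, 43.01, 62.98 and 44.26 FPKM in TEST 1 to 6 and at 76.09, 79.79, 103.35 and 68.14 FPKM in CONTROL 1 to 4. All 6 TEST libraries were below all 4 CONTROL libraries, which was true of 211 of the 10743 tested genes (1.96%). The mean was 48.4 ± 9.85 FPKM (SD, n = 6) against 81.8 ± 15.1 FPKM (SD, n = 4), a difference of -0.75 on the log2(FPKM + 1) scale (SE 0.20, 95% interval -1.19 to -0.31, unadjusted p = 0.0025). Its adjusted p in limma was 0.16, and it ranked 165 by p. TEST 1 and TEST 2 share their mice, and these p-values treat them as separate. With TEST 1 and TEST 2 averaged, the difference was -0.71 (limma adjusted p = 0.30). Over 28 alternative settings, among them the grouping by receptor given below, the difference was -0.93 to -0.63 and the adjusted p 0.033 to 0.58. Leaving out single libraries gave a limma adjusted p of 0.11 to 0.48. The call was made in 1 of them, with library weights estimated from the data (-0.81, adjusted p = 0.033), in which 334 genes were called. The libraries did not overlap under any of 5 other scalings either: with median ratio scaling, TEST was at 31.5 to 63.7 and CONTROL at 67.8 to 108, and without the ribosomal RNA genes TEST was at 29.1 to 73.8 and CONTROL at 76.6 to 107.

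The CONTROL libraries with and without the receptor were both high. CONTROL 4, whose T cells carry the receptor, had the lowest Slc38a2 level of the CONTROL group and was still above TEST 5, the highest of the TEST group. When T cells with the receptor (7 libraries) were compared with receptor-null T cells (3 libraries), Slc38a2 was at 40.45 to 68.14 against 76.09 to 103.35 FPKM, a difference of -0.76 (limma adjusted p = 0.58). Of the 10743 tested genes, 220 (2.05%) lay lower in all libraries with the receptor in this way. With median ratio scaling the ranges of Slc38a2 overlapped, at 31.5 to 70.8 against 67.8 to 108. Slc3a2 was at 87.82 to 121.51 against 124.48 to 138.27 FPKM (-0.35, adjusted p = 0.71), and its ranges overlapped under each of the 5 other scalings.

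Within each library, Slc38a2 was set against its relative Slc38a1, since a ratio of this kind does not depend on how the library was scaled. The ratio of Slc38a2 to Slc38a1 was 1.52, 1.95, 1.70, 1.16, 1.54 and 1.85 in TEST 1 to 6 and 2.64, 2.18, 3.50 and 3.38 in CONTROL 1 to 4. The groups did not overlap, which was already so for Slc38a2 alone, and the ratio is therefore no separate support. The share of such ratios among other pairs of genes was not computed. Against Slc3a2 the ratio of Slc38a2 was 0.376 to 0.631 in TEST and 0.602 to 0.748 in CONTROL, and these ranges overlapped through TEST 3. Slc38a1 itself was at 21.03 to 40.84 FPKM (median 30.5) in TEST and at 28.78, 36.6, 29.54 and 20.13 FPKM in CONTROL, with a difference of 0.08 (SE 0.24, adjusted p = 0.91) that took the opposite sign with TPM scaling (-0.08).

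**Figure D2:**
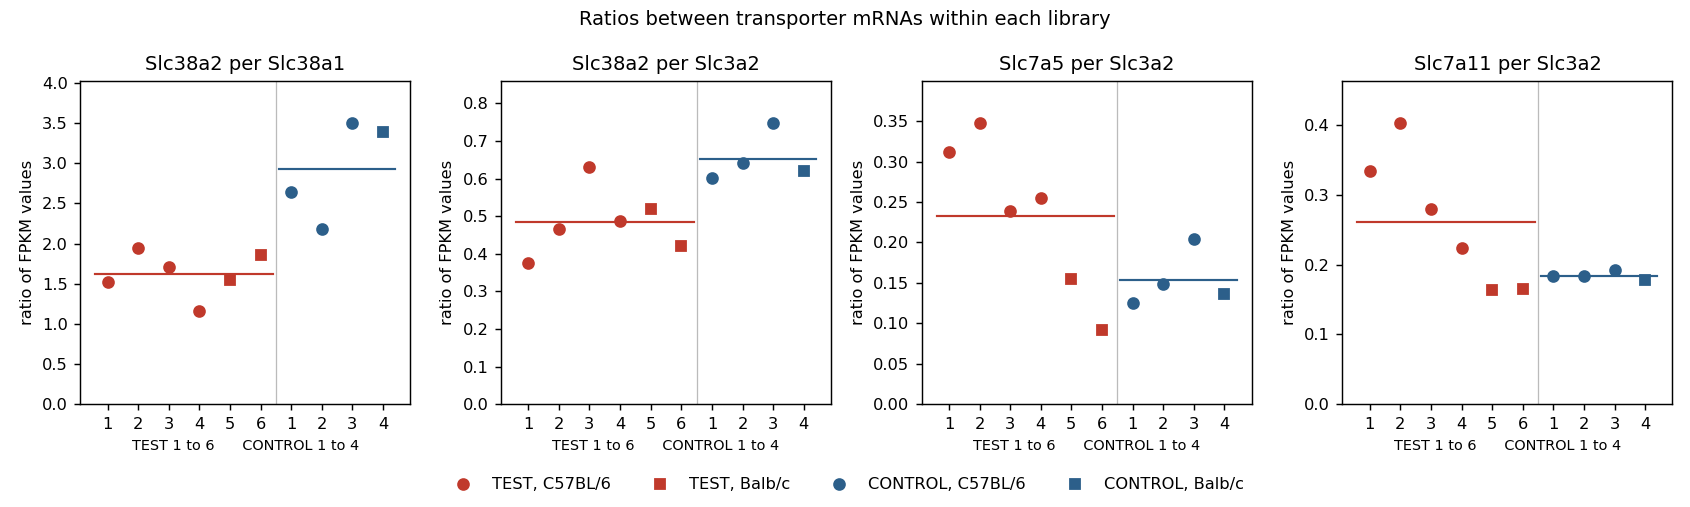
Ratios of FPKM values within each library (vertical axes, from 0) in TEST 1 to 6 (red) and CONTROL 1 to 4 (blue), with circles for C57BL/6, squares for Balb/c and lines for group means. The ratio of Slc38a2 to Slc38a1 lies at 1.16 to 1.95 in TEST and 2.18 to 3.50 in CONTROL, whereas the ratios of the light chains Slc7a5 and Slc7a11 to the heavy chain Slc3a2 overlap between the groups.

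Slc3a2, the heavy chain CD98, was at 87.82 to 121.51 FPKM in TEST (median 99.2) and at 126.49, 124.48, 138.27 and 109.97 FPKM in CONTROL. On the FPKM scale TEST 5 was above CONTROL 4, both from Balb/c mice, and the other 3 CONTROL libraries were above all TEST libraries. The difference was -0.31 on the log2 scale (SE 0.18, 95% interval -0.70 to 0.08, adjusted p = 0.46). Slc3a2 varied least of the tested carriers over the 10 libraries on the FPKM scale, with 1.57-fold between the highest and the lowest value, although with median ratio scaling Slc7a6 varied less (1.80-fold against 2.24-fold).

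The levels of the light chains overlapped between TEST and CONTROL. Slc7a5, the leucine carrier, was at 33.51, 30.52, 22.27, 22.46, 18.87 and 9.64 FPKM in TEST 1 to 6 and at 15.78, 18.49, 28.3 and 15.04 FPKM in CONTROL 1 to 4. Both the highest and the lowest of the 10 values were thus in TEST, and the difference was 0.18 (SE 0.31, adjusted p = 0.84). It became -0.10 when TEST 1 and TEST 2, the libraries from the same mice, were left out. Slc7a11, the cystine carrier, was at 36.01, 35.39, 26.07, 19.72, 19.92 and 17.31 FPKM in TEST 1 to 6 and at 23.26, 22.85, 26.65 and 19.57 FPKM in CONTROL 1 to 4. TEST 1 and TEST 2 were the highest, and on the FPKM scale TEST 6 the lowest, and the difference of 0.10 (SE 0.24, adjusted p = 0.88) took the opposite sign in the TPM scaling (-0.06) and without the ribosomal RNA genes (-0.04). Slc7a6, the arginine and neutral amino acid exchanger, was at 6.99 to 13.91 FPKM in TEST (median 9.18) and at 8.86, 15.34, 9.88 and 7.19 FPKM in CONTROL, with a difference of -0.04 (SE 0.27, adjusted p = 0.96).

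The summed level of the 3 light chains was lower than that of the heavy chain in every library. Slc7a5, Slc7a6 and Slc7a11 together came to 0.714, 0.830, 0.629, 0.636, 0.427 and 0.333 times Slc3a2 in TEST 1 to 6 and to 0.379, 0.455, 0.469 and 0.380 times in CONTROL 1 to 4. The 4 C57BL/6 TEST libraries were above all CONTROL libraries, and TEST 6 was below them. No correlation of Slc3a2 with a light chain over the 10 libraries passed the threshold; TEST 1 and TEST 2 share their mice, and the permutations treat them as separate. Pearson's r on the log2 scale was -0.16 for Slc7a5 (permutation p = 0.66, Spearman's rho -0.26, p = 0.47), 0.19 for Slc7a6 (p = 0.60, rho 0.26, p = 0.47) and -0.16 for Slc7a11 (p = 0.64, rho 0.018, p = 0.97). The 3 adjusted permutation p-values for r were 0.66. Without TEST 2 and CONTROL 3, the libraries farthest from the median of Slc3a2, r was -0.24, 0.013 and 0.0022, and within the 6 TEST libraries it was -0.30, 0.12 and -0.27. After rescaling without the ribosomal RNA genes, r was 0.36, 0.47 and 0.52 (adjusted permutation p = 0.32, 0.21 and 0.21), so that the sign for Slc7a5 and Slc7a11 depended on the scaling. With TEST 1 and TEST 2 also averaged, over 9 samples, r was 0.41, 0.47 and 0.62 (exact permutation p adjusted over 28 pairs 0.38, 0.30 and 0.29), and with median ratio scaling 0.34, 0.041 and 0.54.

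Slc1a5, the exchanger through which activated T cells take up glutamine, had the widest range of the tested carriers, 6.37-fold. It was at 20.51, 15.93, 37.52, 64.12, 31.05 and 14.46 FPKM in TEST 1 to 6 and at 16.41, 92.18, 18.6 and 18.06 FPKM in CONTROL 1 to 4. CONTROL 2 was far above the other CONTROL libraries and TEST 4 the highest of the TEST libraries. The difference was -0.01 (SE 0.49, 95% interval -1.06 to 1.04, adjusted p = 0.996) and became 0.57 (adjusted p = 0.73) without CONTROL 2. CONTROL 2 also had the highest Slc7a6 level of the 10 libraries and the highest summed B cell markers (32.3 FPKM, with up to 16.8 in TEST), and its relative depth was the lowest (0.641, next to 0.651 in CONTROL 4); their part in the result was not tested. Slc1a4, the relative of Slc1a5, was at 0.45 to 0.78 FPKM in TEST and at 0.47, 0.49, 0.32 and 0 FPKM in CONTROL. In a table without counts the value of 0 may be a failed estimate.

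Slc7a1, the main arginine importer of activated T cells, was at 22.76, 19.67, 18.94, 34.92, 26.98 and 11.77 FPKM in TEST 1 to 6 and at 22.29, 30.29, 21.45 and 19.32 FPKM in CONTROL 1 to 4. TEST 6 was the lowest and TEST 4 the highest library on the FPKM scale, and after rescaling without the ribosomal RNA genes CONTROL 2 was the highest (34.9, with TEST 4 at 23.6). The difference was -0.10 (SE 0.27, 95% interval -0.68 to 0.47, adjusted p = 0.90).

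**Figure D3:**
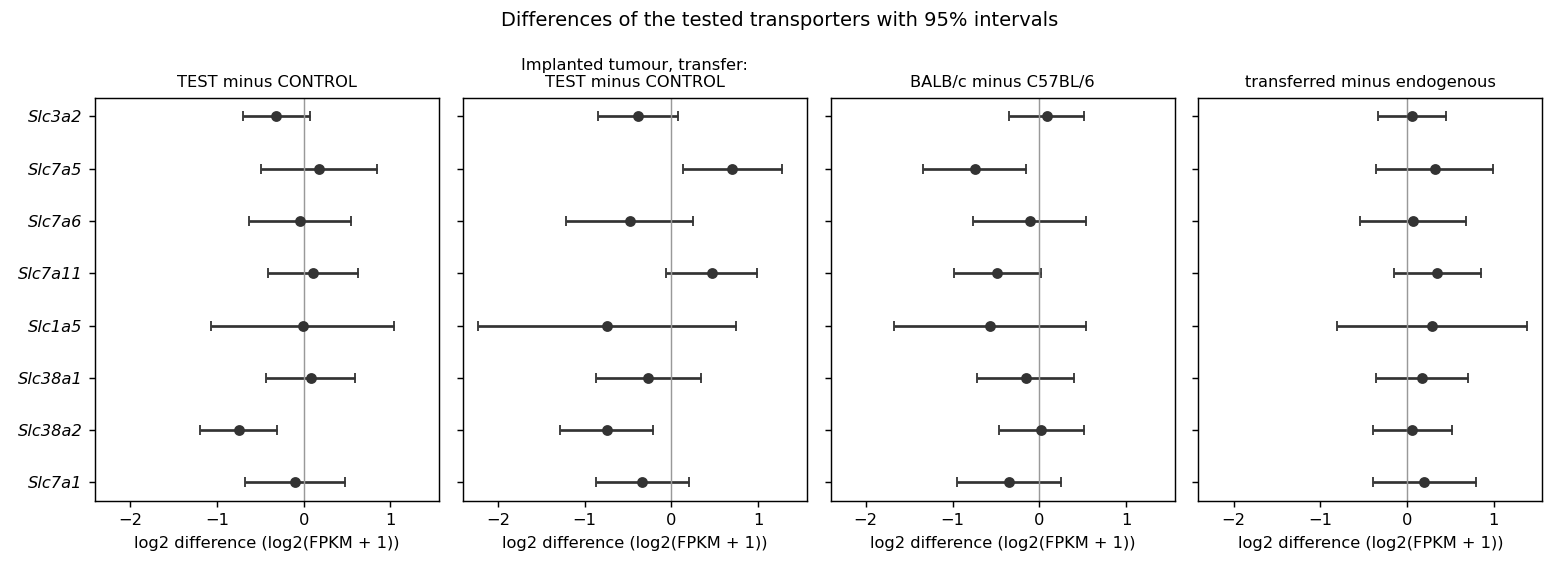
Differences of the 8 tested carriers on the log2(FPKM + 1) scale (horizontal axes) in 4 comparisons, with points for the limma estimates and bars for their 95% intervals. Slc38a2 lies at -0.75 both over all libraries and within the implanted tumor arm, and Slc7a5 lies at 0.70 in the implanted tumor arm and at -0.74 between the strains; none of these passed the threshold after adjustment.

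The implanted tumor arm held TEST 1 to 3 and CONTROL 1 and 2. Host strain, irradiation, tumor implantation and T cell transfer were shared between these TEST and CONTROL libraries. In this arm the K14-TSLP transgene of the hosts, the TSLP receptor of the T cells and the nodes sampled differed. No carrier passed the threshold there (3 of 10816 tested genes passed, 0.0277%, and 1909 had an unadjusted p below 0.05). The median of all tested genes was itself -0.25 in this comparison, and 2 carriers were above 0 and 6 below, with a median of -0.36. Slc7a5 was higher in each of the 3 TEST libraries (22.27 to 33.51 FPKM) than in both CONTROL libraries (15.78 and 18.49), with a difference of 0.70 (SE 0.25, unadjusted p = 0.022, adjusted p = 0.23). Of the 10816 tested genes, 810 (7.49%) were higher in TEST without overlap and 3214 (29.7%) lower. Slc7a11 was at 26.07 to 36.01 against 23.26 and 22.85 FPKM, a difference of 0.46 (SE 0.23, adjusted p = 0.32). Slc38a2 was at 40.45 to 58.81 against 76.09 and 79.79 FPKM, a difference of -0.75 (SE 0.23, adjusted p = 0.21), and of -0.45 with median ratio scaling, under which the median of all genes was 0.0076. Slc1a5 differed by -0.74 (SE 0.65, adjusted p = 0.54). With CONTROL 2 as the lone CONTROL library, assumed to vary like the TEST libraries, Slc1a5 passed the threshold (-1.95, adjusted p = 0.030) in a fit that called 907 genes, and without CONTROL 2 the difference was 0.47. TEST 1 and TEST 2 share their mice, and the p-values treat them as separate.

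TEST 1 and TEST 2 show how far the levels lay apart in nodes of the same mice. The ratio of the draining to the non-draining node was 0.987 for Slc38a2, 1.02 for Slc7a11, 1.05 for Slc7a6, 1.10 for Slc7a5, 1.16 for Slc7a1, 1.23 for Slc3a2, 1.26 for Slc38a1 and 1.29 for Slc1a5. These are single libraries, and no test was made.

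The strain of the mice was uneven between the groups, and Balb/c (3 libraries) was compared with C57BL/6 (7 libraries) in a model that also held the TEST and CONTROL groups. No Balb/c library came from the implanted tumor arm or from receptor-null T cells. Differences between the strains therefore also contain tumor model, irradiation, transfer and receptor genotype. No carrier passed the threshold, whereas 64 of 10743 tested genes did (0.596%). Slc7a5 was at 18.87, 9.64 and 15.04 FPKM in TEST 5, TEST 6 and CONTROL 4 and at 15.78 to 33.51 FPKM (median 22.5) in C57BL/6, with a difference of -0.74 (SE 0.28, unadjusted p = 0.018, adjusted p = 0.42) that became -0.45 (adjusted p = 0.87) without TEST 6. Slc7a11 was at 19.92, 17.31 and 19.57 FPKM against 19.72 to 36.01 FPKM (median 26.1), with a difference of -0.48 (SE 0.23, adjusted p = 0.57). The ranges of both overlapped between the strains. The other 6 carriers differed by -0.57 (Slc1a5) to 0.09 (Slc3a2), with adjusted p of 0.80 to 0.99. Of the 8, 6 were below 0 and their median was -0.25, against -0.01 over all tested genes. The interaction term, which tests whether the difference between TEST and CONTROL differs between the strains, passed for no carrier (adjusted p = 0.9998 for each of the 8) and rests on 1 Balb/c CONTROL library.

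Transferred T cells (6 libraries) and T cells of the animal itself (4 libraries) were compared in the same way. Every library of the implanted tumor arm held transferred T cells. This contrast therefore also contains host, irradiation, tumor model and pooling of mice. None of the carriers passed, nor did any of the 10743 tested genes (0%), with 1132 genes (10.5%) at an unadjusted p below 0.05. All 8 carriers had differences above 0, from 0.06 for Slc3a2 and Slc38a2 to 0.35 for Slc7a11 (SE 0.23, adjusted p = 0.62), with a median of 0.18 against -0.13 over all tested genes. Slc7a11 was at 19.92 to 36.01 FPKM (median 24.7) in transferred and at 19.72, 17.31, 26.65 and 19.57 FPKM in endogenous T cells, so the ranges overlapped. Leaving out single libraries turned the sign for 6 of the 8 carriers, and library weights turned it for Slc3a2 and Slc38a2.

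Correlations between pairs of carriers were described over the mouse samples, and whether they are particular to the carriers was not tested. Over 9 mouse samples (TEST 1 and TEST 2 averaged, values rescaled without the ribosomal RNA genes), 5 of the 28 pairs had an adjusted p below 0.05 for Pearson's r, and 3 of them also for Spearman's rho. These pairs were examined after the values were seen. The share of such pairs among all tested genes was not computed. Over the same samples each carrier reached r of 0.88 to 0.99 with its most similar gene outside the list. Slc3a2 and Slc38a2 had r = 0.92 (exact permutation p = 0.0015, adjusted p = 0.021, rho 0.92, exact p = 0.0013), r = 0.78 without TEST 4 and TEST 6 and r = 0.93 within the 6 C57BL/6 samples. Since Slc38a2 separates TEST from CONTROL, r was also computed with the mean of each group taken out, which gave 0.87 (exact permutation within the 5 TEST and 4 CONTROL samples, p = 0.022). The p-values without the group means were not adjusted. They belong to pairs picked by their r over these same samples, so they add no separate support. Without the group means, Slc3a2 had r = 0.64 with Slc7a11, 0.45 with Slc7a5 and 0.46 with Slc7a6 (exact permutation p = 0.20, 0.38 and 0.20). Slc7a5 and Slc7a11, the carriers of leucine and of cystine, had r = 0.86 (exact permutation p = 0.0028, adjusted p = 0.026, rho 0.87, exact p = 0.0045), r = 0.71 without TEST 1 and TEST 6, r = 0.85 within C57BL/6 and r = 0.86 without the group means (exact p = 0.015). Slc7a6 and Slc38a1 had r = 0.93 (exact permutation p = 0.00085, adjusted p = 0.021, rho 0.90, exact p = 0.0020), r = 0.88 without CONTROL 2 and TEST 5, r = 0.89 within C57BL/6 and r = 0.94 without the group means (exact p = 0.0021). Slc7a6 with Slc1a5 (r = 0.84, exact permutation p = 0.0081, adjusted p = 0.045) and with Slc7a1 (r = 0.79, exact p = 0.0058, adjusted p = 0.040) were the other pairs, with rho of 0.72 and 0.58 (adjusted permutation p = 0.26 and 0.34). With median ratio scaling r was 0.88, 0.86, 0.87, 0.79 and 0.64 for the 5 pairs in this order. Library scaling and depth are shared by both genes of a pair, and their part in these values was tested only through the change of scaling.

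**Figure D4:**
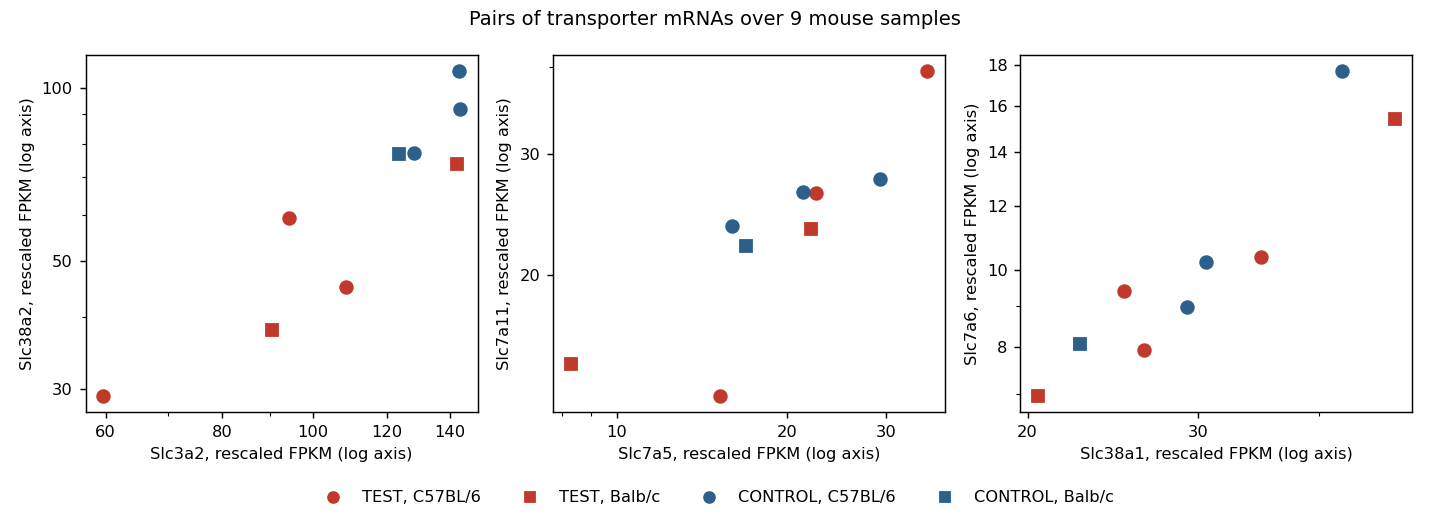
Rescaled FPKM of 3 pairs of carrier mRNAs over 9 mouse samples (both axes logarithmic), with TEST in red, CONTROL in blue, circles for C57BL/6 and squares for Balb/c. Slc3a2 and Slc38a2 (r = 0.92), Slc7a5 and Slc7a11 (r = 0.86) and Slc38a1 and Slc7a6 (r = 0.93) increase together; in the first pair the CONTROL samples sit at the upper right, and in the others the groups are mixed.

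Among the 10732 other tested genes compared, those with the pattern most like each carrier over the same 9 samples were ranked by Pearson's r, as a description. For Slc7a5 they were Hspa1a (0.88), 3230401D17Rik (0.86), Slu7 (0.86), Dap (0.85) and Hsp90aa1 (0.85), of which Hspa1a and Hsp90aa1 encode heat shock chaperones. For Slc3a2 they were Jmjd1c (0.98), Ccnt1 (0.97) and Qrich1 (0.97), and for Slc38a2 Mef2d (0.99), Jmy (0.98) and Tas1r3 (0.96). Slc1a5 was most like Cpsf1 (0.96), Mybbp1a (0.96) and Npepl1 (0.95), and Slc7a1 most like Zfp143 (0.98), Doc2a (0.98) and Xpot (0.98), the last a tRNA exporter. Slc7a6 was most like Nup188 (0.95), Glt25d1 (0.95) and Dtx3l (0.94), Slc7a11 most like D14Ertd449e (0.96), Tuba1b (0.96) and Eif2a (0.92), and Slc38a1 most like St6galnac3 (0.96), Hdhd2 (0.95) and Abhd10 (0.94). With median ratio scaling these values were between 0.54 (Slc7a6 with Dtx3l) and 0.99 (Slc38a2 with Mef2d).

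Other genes of amino acid transport, sensing and use were read in the same TEST against CONTROL comparison, and none of them passed the threshold over all tested genes. Of 27 other amino acid transporters in the table, 11 were tested, 5 above and 6 below 0, with a median of -0.30. Slc16a10, a carrier of aromatic amino acids, was at 1.05 to 2.35 FPKM in TEST and 3.34 to 5.2 FPKM in CONTROL, a difference of -0.996 (SE 0.26, adjusted p = 0.14). Its libraries did not overlap, and 1.96% of all tested genes were lower in TEST in this way. Slc3a1, the other heavy chain of the family, was at 0.19 to 1.28 against 0.65 to 4.31 FPKM (-0.81, adjusted p = 0.33), and Slc38a9, the lysosomal arginine sensor of mTORC1, at 2.30 to 3.51 against 2.43 to 5.82 FPKM (-0.41, adjusted p = 0.52). Slc38a2, Slc16a10 and Slc3a1 had an unadjusted p below 0.05, 3 of the 19 tested carriers of both lists (15.8%), a share near the 13.7% of all tested genes.

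Most tested genes of the ATF4 response lay above 0, unlike Slc38a2. Of 18 tested, 13 were above and 5 below 0, with a median of 0.23, and 3 (16.7%, near the 13.7% of all tested genes) had an unadjusted p below 0.05. Psat1, an enzyme of serine synthesis, was at 24.29 to 40.03 FPKM in TEST and 15.07 to 21.9 FPKM in CONTROL (0.73, SE 0.20, adjusted p = 0.17). Asns, which makes asparagine, was at 1.19 to 8.73 against 0.14 to 3.58 FPKM (1.19, adjusted p = 0.31), and Eif4ebp1, the translation repressor regulated by mTORC1, at 3.98 to 10.77 against 2.46 to 5.03 FPKM (0.75, adjusted p = 0.32).

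The 16 tested genes of cystine, glutathione and thioredoxin metabolism had the highest median of the 10 lists of amino acid and activation genes, 0.59, with 12 above and 4 below 0, although the cystine carrier Slc7a11 differed by 0.10. An unadjusted p below 0.05 was reached by 25.0% of them, against 13.7% of all tested genes. Over the 10 lists this share ran from 12.5% (methionine cycle) to 26.7% (glutamine) and 27.8% (Myc and T cell activation), a spread that was not tested. Txn1, thioredoxin, was at 143.86 to 303.8 FPKM in TEST and 81.22 to 160.99 FPKM in CONTROL (1.03, SE 0.26, adjusted p = 0.14). Nqo1, a quinone reductase, was at 1.69 to 8.99 against 0.18 to 1.98 FPKM (1.31, adjusted p = 0.21), and Srxn1, sulfiredoxin, at 4.33 to 32.01 against 1.88 to 8.51 FPKM (1.37, adjusted p = 0.28).

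Genes that use glutamine were divided. Of 15 tested, 8 were above and 7 below 0 (median 0.06). Gpt, alanine aminotransferase, was at 1.13 to 1.88 FPKM in TEST and 0.12 to 0.76 FPKM in CONTROL (0.93, SE 0.26, adjusted p = 0.17). Of 30 genes of mTORC1 and amino acid sensing, 15 were above and 15 below 0 (median -0.0062). Lamtor3, a subunit of the lysosomal Ragulator complex, was at 12.67 to 27.2 against 7.19 to 14.63 FPKM (0.81, adjusted p = 0.21). Sesn1, a sestrin of the leucine sensor family, was at 5.86 to 23.26 against 14.07 to 34.62 FPKM (-1.17, adjusted p = 0.23), and Wdr59, of the GATOR2 complex, at 8.09 to 15.42 against 6.17 to 9.79 FPKM (0.57, adjusted p = 0.33).

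Of 15 tested genes of arginine and polyamine metabolism, 11 were above and 4 below 0 (median 0.19), with Asl, which makes arginine, at 10.02 to 19.48 against 5.97 to 10.33 FPKM (0.74, adjusted p = 0.23), Dhps, which makes deoxyhypusine, at 8.05 to 26.74 against 4.74 to 8.64 FPKM (0.81, adjusted p = 0.29) and Arg2, an arginase, at 0 to 2.86 against 0.15 to 2.71 FPKM (-0.83, adjusted p = 0.41). Of 8 genes of the methionine cycle, 5 were above 0 (median 0.05), and Ahcy, which clears S-adenosylhomocysteine, was at 20.39 to 29.87 against 11.49 to 19.59 FPKM (0.60, adjusted p = 0.26). Mtap and Mat2b, which salvage methionine and regulate its adenosylation, differed by 0.47 and 0.40 (adjusted p = 0.43 and 0.57). Of 10 genes of branched-chain amino acid catabolism, 6 were above 0 (median 0.03), with Mccc2, a subunit of an enzyme that breaks down leucine, at 1.17 to 2.76 against 0.63 to 1.46 FPKM (0.66, adjusted p = 0.33), Ppm1k, the phosphatase that activates the branched-chain dehydrogenase, at 3.63 to 11.78 against 8.76 to 11.14 FPKM (-0.66, adjusted p = 0.36) and Bckdha, a subunit of that dehydrogenase, differing by 0.53 (adjusted p = 0.70).

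**Figure D5:**
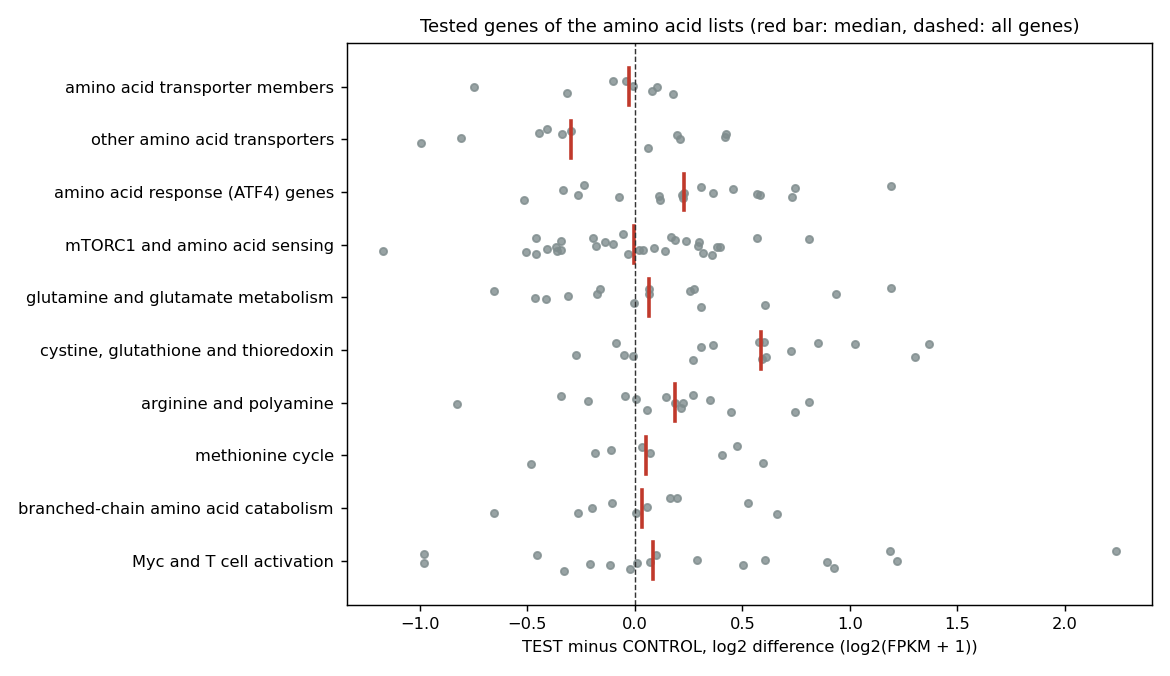
TEST minus CONTROL differences on the log2(FPKM + 1) scale (horizontal axis) of the tested genes of 10 lists, with a grey point for each gene, a red bar for the list median and a dashed line for the median of all tested genes. The median of the 8 tested carriers is -0.03, that of the other amino acid transporters -0.30 and that of the cystine, glutathione and thioredoxin genes 0.59.

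Between the strains, 1 of 15 tested genes of the arginine list and 1 of 16 of the cystine list passed the threshold. Of all tested genes 0.596% passed, and the carriers Slc7a1 and Slc7a11 did not. Odc1, the first enzyme of polyamine synthesis, was at 50.08 to 86.1 FPKM in the 3 Balb/c libraries and at 164.53 to 658.49 FPKM in the 7 C57BL/6 libraries (-2.30, SE 0.40, limma adjusted p = 0.017). Hmox1, heme oxygenase, was at 1.97 to 5.55 against 5.80 to 32.34 FPKM (-1.91, SE 0.36, adjusted p = 0.027). Both were thus lower in the Balb/c libraries, which also differ from the C57BL/6 libraries in tumor model, irradiation and receptor genotype. They are named because they passed, after their values were seen.

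Levels of activation genes and of markers of other cells are given beside those of the carriers, and their part in the results was not tested. Of 18 tested genes of Myc and T cell activation, 11 were above and 7 below 0 (median 0.09), with Tnfrsf4 (OX40) at 118.69 to 395.5 FPKM in TEST and 54.51 to 174.8 FPKM in CONTROL (1.22, adjusted p = 0.17), Cd44 at 67.83 to 173.72 against 26.6 to 97.78 FPKM (1.19, adjusted p = 0.23) and Icos at 207.15 to 543.28 against 107.08 to 435.51 FPKM (0.93, adjusted p = 0.33). The 12 T cell markers, of which 6 were above and 6 below 0, summed to 1750 to 3323 FPKM in TEST and to 1769 to 2448 FPKM in CONTROL. Sums in TEST and in CONTROL were 1.35 to 16.8 and 2.87 to 32.3 FPKM for 10 B cell markers, 1.62 to 36.6 and 0.82 to 8.03 for 5 NK cell markers, 3.01 to 19.6 and 4.73 to 9.01 for 9 monocyte and macrophage markers, 2.62 to 11.3 and 4.45 to 7.66 for 7 dendritic cell markers, 0 to 35.8 and 0 to 9.56 for 6 neutrophil markers, 0 to 51.2 and 0.86 to 7.56 for 5 red cell markers, and 0.16 to 1.06 and 0.24 to 1.10 for 7 stromal markers. The 2 CD8 T cell markers summed to 0.89 to 4.58 and 3.09 to 6.45 FPKM. The 10 mammary epithelial markers summed to 9.63 to 17.4 and 2.88 to 17.4 FPKM, with Epcam at 7.53 ± 3.00 against 3.29 ± 2.91 FPKM (adjusted p = 0.25). The macrophage marker Mrc1 and the keratin gene Krt14 were at 0 in every library.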

How the data were processed

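CD4+ T cell RNA of 10 mouse libraries was sequenced, and the authors deposited 1 table of FPKM values, made with Bowtie, BWA and RSEM against mm10 per the labels and the methods (versions not given in the sources used here); use of strand was not stated. Groups came from the labels. The members and lists were chosen with earlier results of these data known. Genes with 1 FPKM or more in at least 4 libraries (2 in the implanted arm) were tested with limma 3.58.1 (R 4.3.3) on log2(FPKM + 1), where fold changes of low genes are understated, with trend and Benjamini-Hochberg adjustment. The study's own test needed counts, which were not used here. FPKM carry no depth, so intervals cover the spread between libraries alone, and where libraries are not separate cultures this spread may be technical. The script was tested on simulated data. Correlations used Python 3.11.15 with scipy 1.17.1. Named were all members, up to 3 genes per list with the smallest p, and the genes most like each member. A few genes that this rule or the marker lists hold are not reported here. Alternatives were scaling, filter, pseudocount, covariates and left-out libraries. Slc38a1 overlaps the lncRNA gene Gm32457, so reads of both may mix.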

Additional observations from a re-analysis of the deposited data

Results flagged for a closer look

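Slc1a5 in CONTROL 2 was at 92.18 FPKM, with the other 3 CONTROL libraries at 16.41 to 18.6 FPKM. The gap to the nearest library took up more of the range than Dixon's 95% limit for 4 samples allows. It was the only such value among the 9 carriers in the TEST and CONTROL groups, 18 sets of values in all, of which chance would single out about 5%. CONTROL 2 came from 1 mouse, with pooled draining and non-draining nodes.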

How the results depend on the processing

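Over the settings tried, the number of carriers passing the threshold stayed at 0 except for 1 (Slc38a2) with library weights in TEST against CONTROL and 0 to 1 (Slc1a5) on leaving out libraries in the implanted arm. Of the differences recomputed, 682 kept their direction and their side of the threshold, 60 took the opposite sign and 2 passed it. In TEST against CONTROL, TPM scaling moved the median of all genes to -0.16, rescaling without ribosomal RNA genes to -0.13, and additionally without Gm20594, a gene as low in TEST 4 as the ribosomal RNA genes, to -0.15; under them Slc7a11 was at -0.055, -0.040 and -0.067 and Slc38a1 at -0.079, -0.067 and -0.094. Slc1a5 was at 0.014 with median ratio scaling, 0.10 with TEST 1 and TEST 2 averaged, 0.085 with both, 0.037 with strain as a covariate and 0.26 without TEST 1 and TEST 2. Slc7a6 was at 0.033, 0.019 and 0.15 with these libraries averaged, averaged after median ratio scaling, and left out, and Slc7a11 at -0.013 and -0.15 in the last 2 of these, with Slc7a5 at -0.10 in the last. Slc38a1 was at -0.0025 with library weights, -0.11 within C57BL/6 and -0.15 for receptor-competent against null T cells, where Slc7a11 was at -0.017. Leaving out single libraries gave -0.26 to 0.57 for Slc1a5, -0.18 to 0.15 for Slc7a6, -0.24 to 0.060 for Slc7a1, -0.075 to 0.20 for Slc38a1 and -0.0023 to 0.20 for Slc7a11. Between strains, Slc7a6 was at 0.074 with library weights, and Slc38a2 at -0.022 with TEST 1 and TEST 2 averaged and -0.10 without them; leaving out single libraries gave -0.17 to 0.22 for Slc38a2, -0.030 to 0.27 for Slc3a2, -0.36 to 0.14 for Slc7a6 and -0.44 to 0.10 for Slc38a1. Between transferred and endogenous T cells, library weights gave -0.0084 for Slc3a2 and -0.035 for Slc38a2, and leaving out single libraries gave -0.0076 to 0.11 for Slc3a2, -0.11 to 0.31 for Slc7a6, -0.0097 to 0.19 for Slc38a2, -0.064 to 0.56 for Slc7a5, -0.25 to 0.92 for Slc1a5 and -0.10 to 0.56 for Slc7a1. In the implanted arm, Slc38a1 was at 0.020 with median ratio scaling and 0.098 with TEST 1 and TEST 2 also averaged, and Slc1a5 ranged from -1.95 to 0.47 on leaving out libraries. The r of Slc3a2 without ribosomal RNA genes was 0.36 with Slc7a5 and 0.52 with Slc7a11. The cause of these changes was not tested. The number of all genes called in TEST against CONTROL ranged from 0 to 84 on leaving out libraries and was 334 with library weights, 20 without ribosomal RNA genes and 0 with TEST 1 and TEST 2 averaged, against 10. The settings without Gm20594, without TEST 1 and TEST 2, and with median ratio scaling and averaging were chosen after seeing the data. No paired analysis was possible because the labels give the groups no shared replicate numbers.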
